A study of Homo sapiens with 18 samples.

Results

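RNA-seq values were examined for 10 genes of the epidermal growth factor receptor (EGFR) family: the ligands AREG, EREG, HBEGF, TGFA, BTC, EPGN and NRG1, and the receptors EGFR, ERBB2 and ERBB3. They were found by symbol among the 18475 genes of the deposited table, and all 10 were present. The 10 genes were chosen by name with AREG and HBEGF in view, which are higher in irradiated BEAS-2B cells, so that their values in irradiated against control BEAS-2B cells are given as a description with no test. The study compared the response to radiation of 3 lung cell lines, each with 3 control libraries and 3 libraries that received 10 Gy of X-rays and were harvested at 24 h. Control libraries are titled before and irradiated ones after, and no harvest time is given for the controls. A difference in time in culture therefore cannot be told apart from irradiation. The lines were BEAS-2B, a virus-transformed line of human bronchial epithelium, A549, a lung adenocarcinoma line, and H446, a line labelled small cell lung cancer. All 6 groups are labelled wild type, each line is an established culture, and although the study's methods speak of repeated experiments in general, no source says which libraries are separate cultures, so that p-values measure only the spread between these libraries.

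The ligands of this family are made as membrane-anchored precursors, cut free at the cell surface by ADAM proteases, and bind receptors on the same or neighbouring cells. AREG, EREG, HBEGF, TGFA, BTC and EPGN bind EGFR, and NRG1 binds ERBB3 and ERBB4. Ligand binding lets receptors pair, with ERBB2 as a partner that has no known ligand of its own and ERBB3 as a partner with a weak kinase. The pairs signal through RAS, RAF, MEK and ERK and through PI3K and AKT. In airway epithelium the family is known for wound closure and mucus production, and in lung adenocarcinoma EGFR is a drug target.

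EPGN, EREG, AREG and BTC lie next to each other on the long arm of chromosome 4, with their start sites spread over 486.1 kb (GRCh38.p14, RefSeq). AREG spans chr4:74445136-74455005, and EREG starts 80.0 kb and EPGN a further 56.7 kb before it on the same strand. BTC starts 349.4 kb beyond the start of AREG, on the opposite strand. HBEGF lies on chromosome 5 (140332843 to 140346603), TGFA on chromosome 2 (70447284 to 70553826), EGFR on chromosome 7 (55019017 to 55211628), ERBB2 on chromosome 17 (39688094 to 39728658) and ERBB3 on chromosome 12 (56080108 to 56103505). EGFR overlaps the antisense gene EGFR-AS1, and ERBB2 overlaps PGAP3 and MIEN1 on the opposite strand. ERBB3 overlaps the protein-coding gene AC034102.2 on its own strand. The strand setting of the counting is not given in the sources used here, so reads of these partners cannot be told apart. The start regions of the 4 ligand genes that fell most in irradiated A549 cells follow, as the 250 bases before the RefSeq start on GRCh38.p14, read in the direction of the gene. Capitals mark the letters TATAAA and the letters TGACG or TGACGTCA.
AREG (chr4:74444886-74445135, + strand): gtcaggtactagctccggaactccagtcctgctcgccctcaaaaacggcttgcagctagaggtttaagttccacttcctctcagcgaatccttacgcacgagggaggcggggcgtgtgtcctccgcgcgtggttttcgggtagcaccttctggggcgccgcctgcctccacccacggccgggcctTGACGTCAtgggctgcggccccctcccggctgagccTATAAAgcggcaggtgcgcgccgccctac
EREG (chr4:74364895-74365144, + strand): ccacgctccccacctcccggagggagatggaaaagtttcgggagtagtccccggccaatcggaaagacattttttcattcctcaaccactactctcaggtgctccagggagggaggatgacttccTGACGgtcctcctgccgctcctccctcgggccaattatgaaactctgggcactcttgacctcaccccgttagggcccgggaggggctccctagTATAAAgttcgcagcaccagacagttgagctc
EPGN (chr4:74308220-74308469, + strand): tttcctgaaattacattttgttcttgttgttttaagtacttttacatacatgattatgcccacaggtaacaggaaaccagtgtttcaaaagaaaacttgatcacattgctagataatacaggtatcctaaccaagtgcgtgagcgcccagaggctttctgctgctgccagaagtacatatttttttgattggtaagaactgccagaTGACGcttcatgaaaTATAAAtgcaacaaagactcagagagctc
HBEGF (chr5:140346604-140346853, - strand): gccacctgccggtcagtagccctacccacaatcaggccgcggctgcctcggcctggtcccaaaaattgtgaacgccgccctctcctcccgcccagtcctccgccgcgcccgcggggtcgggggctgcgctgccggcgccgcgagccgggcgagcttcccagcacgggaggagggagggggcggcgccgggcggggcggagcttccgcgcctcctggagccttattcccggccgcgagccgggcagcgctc
The AREG, EREG and EPGN windows each held TATAAA, the TATA box, on the strand of the gene. It began at position -29 from the start in AREG, -32 in EREG and -29 in EPGN, and 10.7% of 35116 RefSeq promoter windows of this length held it on either strand. The AREG window also held TGACGTCA, the cAMP response element, at position -65, which 1.65% of the windows hold. Its core TGACG, which lies inside the longer element and is therefore counted in both, began at position -125 in EREG and at -44 in EPGN and was present in 21.2% of windows. HBEGF held neither TATAAA nor TGACG. It had 5 copies of GGGCGG, the GC box, and AREG had 1 copy, in a set where 42.6% of windows hold it. None of the 4 windows had TGANTCA, the AP-1 site (6.57% of windows). The GC content was 65.2% in the AREG, 58% in the EREG, 38% in the EPGN and 76.4% in the HBEGF window. These are matches of letters in a short window and are not evidence of a bound factor.

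The table holds 1 normalized value per gene and library, treated as FPKM (read fragments scaled to transcript length and library size). Totals per library lay between 461255 and 529936 FPKM, and the lowest correlation between libraries of a line was 0.992 across genes. The number of reads is unknown. CDKN1A, the p53 target p21, served as a check of the irradiation labels. In A549 cells it was at 100.68, 106.25 and 102.82 FPKM in the controls and at 317.90, 293.77 and 297.43 FPKM after 10 Gy. In BEAS-2B cells it was at 79.93, 86.36 and 86.08 FPKM in the controls and at 309.73, 102.24 and 487.79 FPKM after 10 Gy. The library labelled BEAS-2B 10 Gy replicate 2 thus stood near the controls. The BEAS-2B log2 differences of the 7 family genes that passed the filter there are given with and without it. Folds between means, correlations and values of other genes include it unless stated. In H446 cells CDKN1A was at 71.66 to 75.72 FPKM in the controls and at 63.57 to 72.44 FPKM after 10 Gy. The H446 libraries also differed by group along the GC content of transcripts. The Spearman correlation of each library's deviation with GC, across genes, was 0.35 to 0.46 in the controls and -0.50 to -0.10 after 10 Gy. In BEAS-2B it was -0.63 to 0.01 in the controls and -0.31 to 0.70 after 10 Gy, with the library labelled 10 Gy replicate 2 the highest of the 18, and in A549 it stayed between -0.13 and 0.17. The neuroendocrine markers SYP, CHGA and NCAM1 were at most 0.29, 0.05 and 0.01 FPKM in any H446 library, so the label of small cell lung cancer was not matched by these transcripts. The 4 alveolar and adenocarcinoma markers NKX2-1, NAPSA, SFTPB and SFTPC stayed at or below 0.94 FPKM in A549 cells. The 7 epithelial markers summed to between 1305.54 and 3998.10 FPKM in the controls of the 3 lines, with KRT7, KRT8 and KRT18 as the bulk of it. The other markers of the list were low beside these. Control means in BEAS-2B, A549 and H446 were 2.37, 0.49 and 1.11 FPKM for EPCAM and 0.46, 7.05 and 0.59 FPKM for CDH1. They were 9.80, 26.16 and 2.29 FPKM for KRT19 and at most 0.01 FPKM for KRT5. In A549 this sum was 1712.93 to 1798.31 FPKM in controls and 1434.76 to 1528.13 FPKM after 10 Gy, and in H446 it was 3867.72 to 3998.10 and 3334.72 to 3607.89 FPKM. By limma, KRT7 fell in A549 (log2 difference -0.71, adjusted p = 3.3e-08), CDH1 rose (0.49, adjusted p = 7.9e-05), and KRT8, KRT18 and KRT19 were not called. In H446, KRT7, KRT18 and KRT19 fell (-0.25, -0.20 and -0.32), and KRT8 and EPCAM were not called. The part of this sum in the results on the ligands was not tested.

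In unirradiated cells, the 3 lines differed in which ligands they transcribed and in how much. The 7 ligands summed to between 13.37 and 16.72 FPKM in the 3 BEAS-2B controls, to 84.4 ± 1.81 FPKM (SD, n = 3) in H446 and to 391.6 ± 9.71 FPKM in A549 controls. The 3 receptors summed to 35.8 ± 4.58, 38.2 ± 0.51 and 77.8 ± 4.10 FPKM in BEAS-2B, H446 and A549 controls. In BEAS-2B controls HBEGF made up 61.4% of the ligand sum and TGFA 21.3%. In A549 controls EREG made up 64.8%, NRG1 15.3% and AREG 11.0%. In H446 controls AREG made up 49.2%, EPGN 25.8% and EREG 10.7%.

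**Figure D1:**
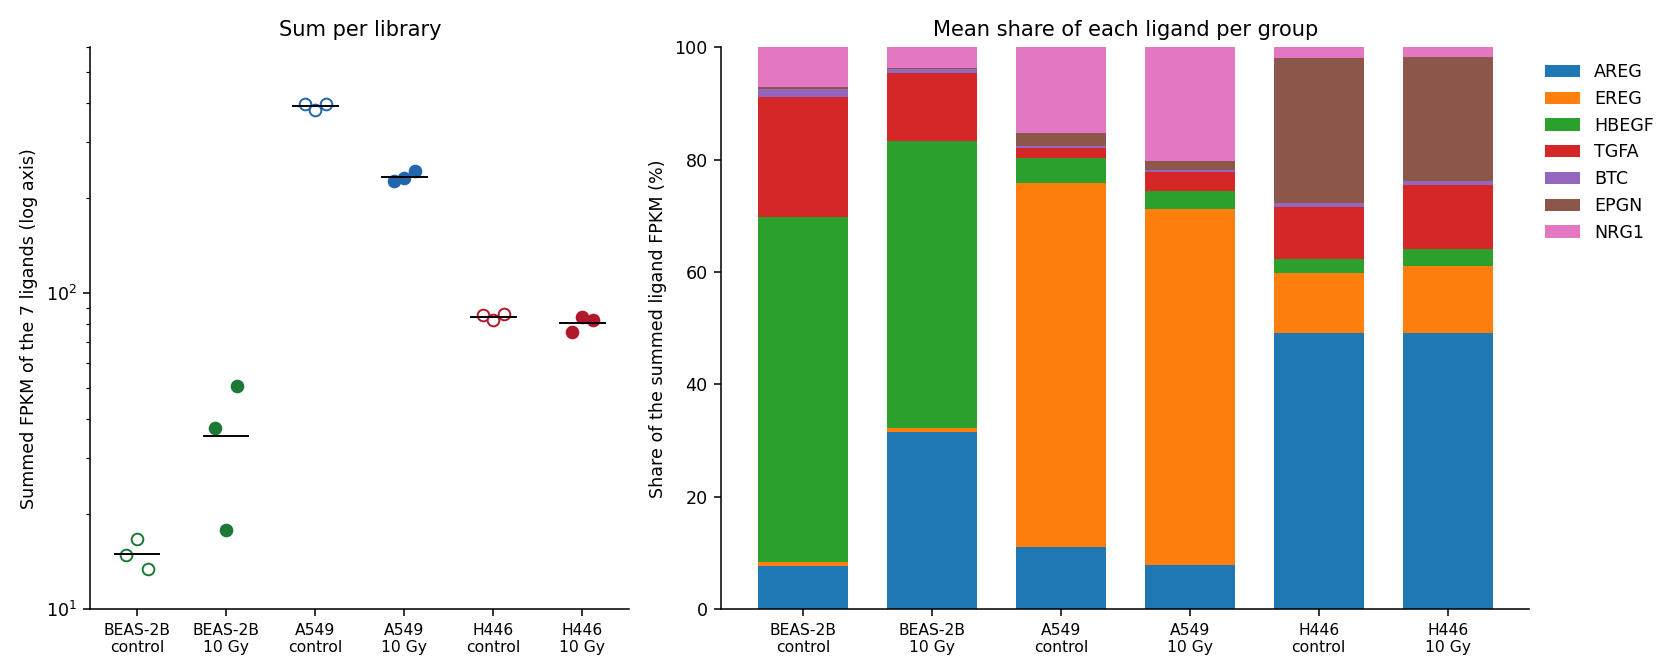
Left, summed FPKM of the 7 ligands in each of the 18 libraries on a log axis (open points control, filled points 10 Gy, bars group means). Right, mean share of each ligand in the sum per group in percent, with HBEGF as the main part in BEAS-2B, EREG in A549 and AREG in H446 cells. The sum fell from 391.6 to 233.9 FPKM in A549 and ranged from 17.82 to 50.79 FPKM in irradiated BEAS-2B cells.

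Ordered by FPKM within a line, EREG stood first in A549 controls, followed by EGFR and NRG1, AREG, HBEGF, ERBB2, EPGN, TGFA, BTC and ERBB3. EGFR and NRG1 overlapped in their libraries, as did BTC and ERBB3, and the other neighbours did not. In H446 controls the order was AREG, EGFR, EPGN, ERBB2, EREG, TGFA, HBEGF, ERBB3, NRG1 and BTC, with overlap of HBEGF and ERBB3 and of ERBB3 and NRG1. In BEAS-2B controls it was ERBB2, EGFR, HBEGF, ERBB3, TGFA, AREG, NRG1, BTC, EREG and EPGN, where EGFR overlapped HBEGF and AREG overlapped NRG1. ERBB2 was thus the highest of the 10 genes in BEAS-2B controls only, and EREG, the highest in A549, was next to lowest in BEAS-2B.

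The controls of the lines were compared in 1 limma fit of all 18 libraries on log2(FPKM + 1), over 13071 genes, with Benjamini-Hochberg adjusted p over all of them and a call at an adjusted p under 0.05. BTC, at most 0.92 FPKM in any library, did not pass the filter on low values and was not tested. Against BEAS-2B controls, 7 of the 9 tested genes were higher in A549 and 2 were lower, in a comparison that called 83.8% of all genes. Against BEAS-2B, 6 were higher and 3 lower in H446 cells (81.1% of all genes called), and between the cancer lines 2 were higher and 5 lower in H446 than in A549 (83.2% of all genes called). A call by itself therefore does not set these genes apart. EREG and EPGN were under the filter in BEAS-2B and ERBB3 was under it in A549. They entered these comparisons through the lines where they are high, so their calls there were fixed by the filter. With 1 FPKM required in every library, A549 against BEAS-2B gave 3 genes higher and 1 lower. The BEAS-2B controls also enter the comparison by which the genes were chosen.

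EREG showed the widest range of the 10. It was at 261.76, 245.88 and 253.38 FPKM in A549 controls, at 9.55, 8.89 and 8.61 FPKM in H446 controls and at 0.08, 0.08 and 0.12 FPKM in BEAS-2B controls. The log2 difference was -4.67 (SE 0.08, adjusted p = 2.7e-20, limma) between H446 and A549. EREG was under the filter in BEAS-2B, so no test against that line is given. NRG1, the ERBB3 ligand, was at 59.66, 55.72 and 64.61 FPKM in A549 controls, and between 0.92 and 1.93 FPKM in the controls of the other lines. Its log2 difference was 4.90 (SE 0.09, adjusted p = 2.2e-19) between A549 and BEAS-2B. ERBB3 ran the other way. It was at 6.91, 7.35 and 6.65 FPKM in BEAS-2B controls against 1.01, 0.64 and 0.85 FPKM in A549 controls, where it was under the filter.

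AREG was at 40.89, 43.07 and 45.32 FPKM in A549 and at 41.52, 39.64 and 43.53 FPKM in H446 controls, levels that overlapped. The difference of H446 from A549 was -0.05 on the log2 scale (SE 0.51, adjusted p = 0.933), with the SE widened by the spread of AREG in BEAS-2B, and 0.06 was its SE in the 12 libraries of the cancer lines alone, a fit added after seeing the data. In BEAS-2B controls AREG was at 1.51, 1.52 and 0.54 FPKM. EPGN, the neighbour of EREG, was the one ligand gene called higher in H446 than in A549, at 21.79, 21.76 and 21.68 against 9.66, 8.72 and 9.01 FPKM (log2 difference 1.17, SE 0.09, adjusted p = 4.0e-10). In BEAS-2B it was at or below 0.08 FPKM in every library, near the weight of 1 read, estimated from the value steps of short genes at about 0.07 FPKM for a transcript of its length. HBEGF, which is also the receptor for diphtheria toxin, was highest in A549 controls (16.24 to 18.99 FPKM), intermediate in BEAS-2B (8.31 to 10.46 FPKM) and lowest in H446 (2.01 to 2.14 FPKM). EGFR itself followed the order A549 (58.27 to 65.76 FPKM), H446 (24.51 to 25.45 FPKM) and BEAS-2B (9.34 to 12.52 FPKM), with log2 differences of 2.45 (SE 0.08) for A549 and 1.16 (SE 0.08) for H446 against BEAS-2B. ERBB2 varied least, from 10.89 to 20.97 FPKM over all controls. It was lower in A549 than in BEAS-2B by a log2 difference of -0.33 (adjusted p = 0.00358), which no longer passed after removal of the GC trends (-0.16, adjusted p = 0.0706). It was also lower in H446 than in A549, by -0.26 (adjusted p = 0.0162), a call that did not hold without H446 control replicate 1 (adjusted p = 0.0639).

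**Figure D2:**
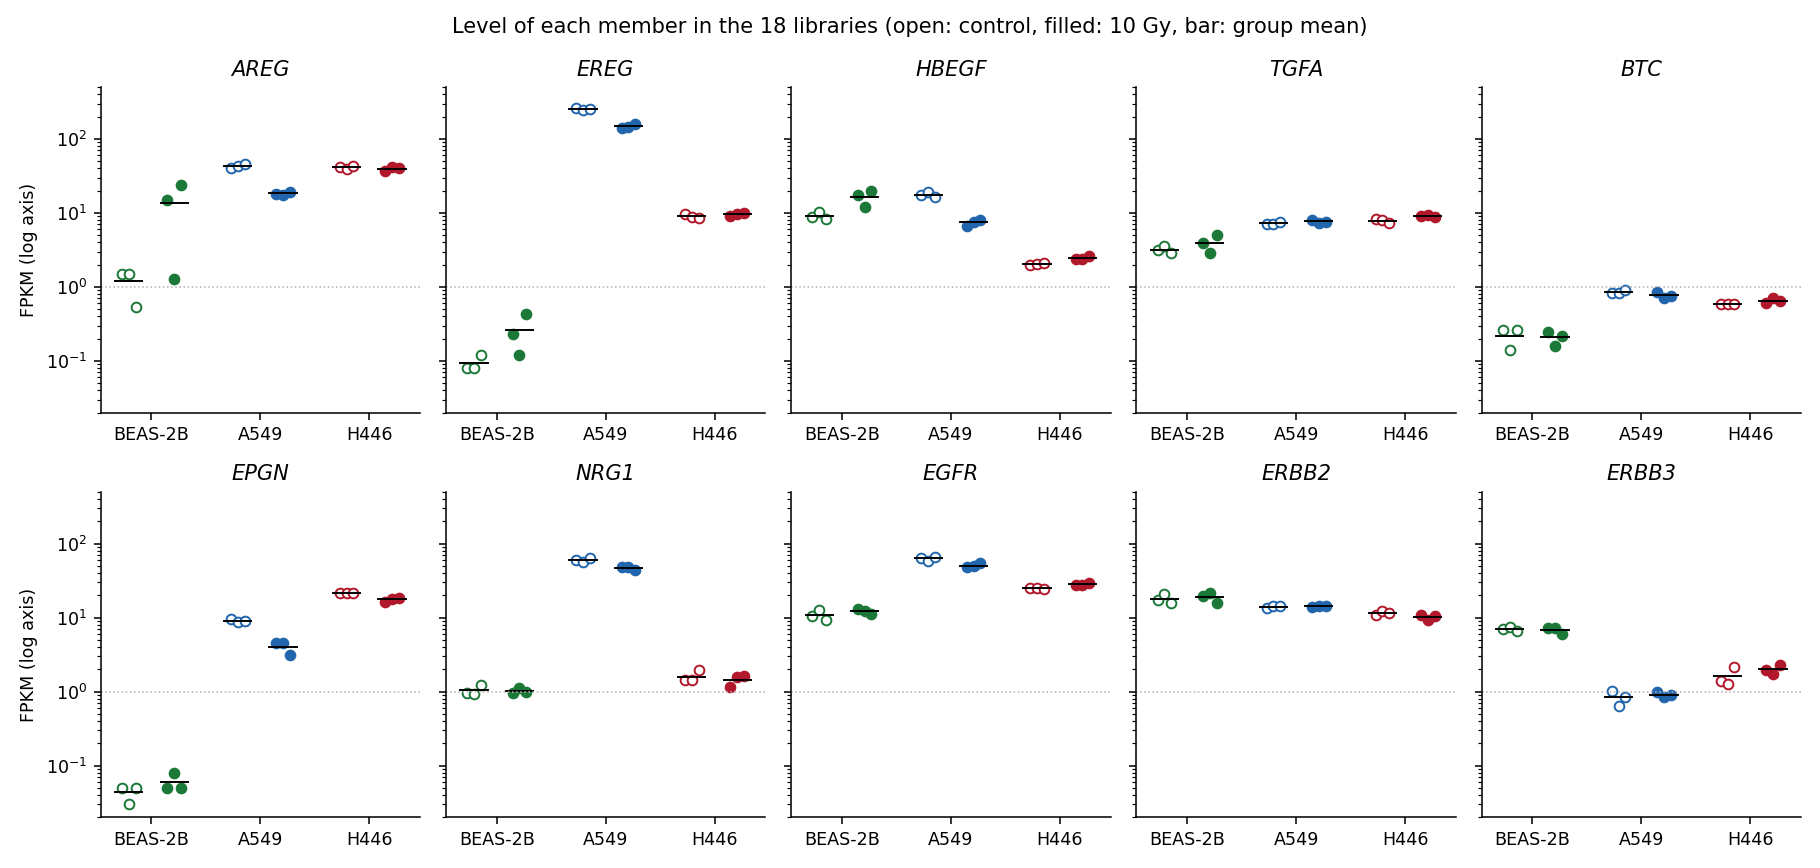
FPKM of the 10 genes in the 18 libraries, on a log axis, with open points for controls, filled points for 10 Gy and bars for group means. The dotted line is the filter limit of 1 FPKM. EREG spans from 0.08 FPKM in BEAS-2B to 261.76 FPKM in A549 controls, and in A549 the filled points of AREG, EREG, HBEGF, EPGN, NRG1 and EGFR lie below all open points.

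After 10 Gy, A549 cells had lower levels of most ligands and of EGFR. Of the 8 tested genes, 6 fell and 0 rose (adjusted p under 0.05, limma, 6 libraries of the line), and TGFA and ERBB2 were the other two. Of all 11993 genes tested in A549, 26.4% fell and 25.3% rose. The ligand sum went from 391.6 ± 9.71 to 233.9 ± 9.02 FPKM (SD, n = 3), and the sum of the receptors from 77.8 ± 4.10 to 65.5 ± 3.53 FPKM. In bulk RNA, fewer cells that transcribe a gene and less transcript per cell cannot be told apart.

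AREG fell from 40.89, 43.07 and 45.32 FPKM to 18.22, 17.43 and 19.47 FPKM, 2.35-fold between the means. The log2 difference was -1.19 (SE 0.05, adjusted p = 7.0e-09). With all 18 libraries in 1 fit, which brings in the spread of AREG in irradiated BEAS-2B, the same difference had an adjusted p of 0.0661. HBEGF went from 17.44, 18.99 and 16.24 FPKM to 6.59, 7.65 and 8.15 FPKM, also 2.35-fold (log2 difference -1.13, SE 0.08, adjusted p = 2.3e-07). EPGN went from 9.66, 8.72 and 9.01 FPKM to 4.51, 4.53 and 3.11 FPKM, 2.25-fold (-1.02, SE 0.10, adjusted p = 7.3e-06). Irradiated and control libraries were well apart for these 3 ligands.

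EREG, the most abundant ligand transcript of the line, fell from 261.76, 245.88 and 253.38 FPKM to 139.89, 145.48 and 160.24 FPKM. This was 1.71-fold between the means (log2 difference -0.77, SE 0.05, adjusted p = 1.5e-07), and it carried most of the fall in the ligand sum, of which EREG remained 63.4% after irradiation. NRG1 fell less, from 59.66, 55.72 and 64.61 FPKM to 47.90, 48.84 and 44.45 FPKM (-0.34, SE 0.05, adjusted p = 2.6e-04). Its share of the ligand sum was 15.3% before and 20.2% after 10 Gy.

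Among the receptors, EGFR fell from 64.71, 58.27 and 65.76 FPKM to 48.00, 49.05 and 54.04 FPKM, 1.25-fold (log2 difference -0.32, SE 0.06, adjusted p = 5.1e-04). ERBB2 was at 13.68, 14.20 and 14.19 FPKM before and at 13.91, 14.14 and 14.54 FPKM after irradiation (0.02, SE 0.05, adjusted p = 0.788). TGFA was at 7.08 to 7.60 FPKM in the controls and 7.41 to 8.04 FPKM after 10 Gy (0.07, SE 0.06, adjusted p = 0.354). BTC (0.71 to 0.92 FPKM) and ERBB3 (0.64 to 1.01 FPKM) did not pass the filter in this line, and their groups overlapped.

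In H446 cells the differences after 10 Gy were small. Of the 9 tested genes, TGFA and EGFR rose, EPGN fell and 6 did not pass, against 14.8% of 11479 genes higher and 23.6% lower. The ligand sum was 84.4 ± 1.81 FPKM in controls and 80.5 ± 4.56 FPKM after 10 Gy. EPGN fell from 21.79, 21.76 and 21.68 FPKM to 16.29, 18.06 and 18.68 FPKM (log2 difference -0.29, SE 0.05, adjusted p = 0.00197). TGFA rose from 8.19, 8 and 7.29 FPKM to 9.07, 9.43 and 8.74 FPKM (0.19, SE 0.06, adjusted p = 0.0253). EGFR rose from 25.45, 25.34 and 24.51 FPKM to 27.22, 27.78 and 29.27 FPKM (0.16, SE 0.04, adjusted p = 0.0142). All irradiated libraries lay on one side of all controls for these 3 genes, and also for HBEGF and ERBB2, which were not called. This makes 5 of the 9 tested genes, and the share of all genes was not computed for this line.

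The TGFA call did not hold without H446 control replicate 2 (adjusted p = 0.0517), control replicate 3 (0.103) or 10 Gy replicate 2 (0.0816), and the EGFR call did not hold without control replicate 3 (0.0584) or 10 Gy replicate 3 (0.0522). Neither passed with all 18 libraries in 1 fit (adjusted p = 0.197 for TGFA and 0.153 for EGFR), and after the GC trend was removed both did (0.0302 and 0.00925). HBEGF was at 2.01, 2.03 and 2.14 FPKM in controls and at 2.37, 2.42 and 2.63 FPKM after 10 Gy, with no overlap and an adjusted p of 0.0662. It passed after removal of the GC trend (0.24, adjusted p = 0.0282), after quantile normalization (0.25, adjusted p = 0.0223) and without the variance trend (0.18, adjusted p = 0.0188). ERBB2 was at 10.89, 12.17 and 11.55 FPKM in controls and 10.72, 9.39 and 10.44 FPKM after 10 Gy (-0.17, SE 0.06, adjusted p = 0.0556). It passed without 10 Gy replicate 1 (adjusted p = 0.0358), and after removal of the GC trend the difference was -0.04 (adjusted p = 0.644).

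The most abundant ligand of H446, AREG, was at 41.52, 39.64 and 43.53 FPKM in controls and 36.75, 41.88 and 39.99 FPKM after 10 Gy, and the groups overlapped (-0.07, SE 0.05, adjusted p = 0.305). EREG, at 8.61 to 9.55 FPKM before and 9.10 to 10.13 FPKM after, overlapped as well (0.09, adjusted p = 0.244). NRG1 was at 1.42, 1.43 and 1.93 FPKM before and at 1.15, 1.57 and 1.60 FPKM after irradiation (-0.09, adjusted p = 0.547). ERBB3 ranged from 1.25 to 2.16 FPKM in controls and from 1.74 to 2.30 FPKM after 10 Gy (0.22, SE 0.13, adjusted p = 0.195), and passed without control replicate 3 (0.36, adjusted p = 0.0243). BTC stayed between 0.58 and 0.70 FPKM and was not tested.

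The response of A549 was set against that of H446 in the fit of all 18 libraries, as the test of the difference itself. Of the 9 tested genes, 4 had a lower response in A549 and 0 a higher one, where 15.3% of 13071 genes were lower and 19.3% higher. The difference was -1.32 for HBEGF (SE 0.17, adjusted p = 2.0e-05), -0.86 for EREG (SE 0.11, adjusted p = 1.0e-05), -0.73 for EPGN (SE 0.13, adjusted p = 2.4e-04) and -0.47 for EGFR (SE 0.11, adjusted p = 0.00362). For AREG the difference was -1.12 (SE 0.73, adjusted p = 0.252). Its SE came largely from the irradiated BEAS-2B libraries, since it was 0.22 (adjusted p = 7.9e-04) without BEAS-2B 10 Gy replicate 2 and 0.08 (adjusted p = 9.4e-08) in the 12 libraries of the cancer lines alone. NRG1 (-0.25, adjusted p = 0.135) passed when H446 control replicate 3 (-0.35, adjusted p = 0.0430) or 10 Gy replicate 1 (-0.34, adjusted p = 0.0420) was left out. TGFA, with -0.13 (adjusted p = 0.567), and ERBB2, with 0.18 (adjusted p = 0.315), did not pass.

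In irradiated BEAS-2B cells, the comparison by which the genes were chosen, AREG was at 14.78, 1.30 and 24.22 FPKM against 1.51, 1.52 and 0.54 FPKM in the controls. Replicates 1 and 3 were above every control, and the library labelled replicate 2 sat among the controls. The log2 difference was 2.18 with all libraries and 3.22 without that library. HBEGF was at 17.29, 12.16 and 19.80 FPKM after 10 Gy and at 8.85, 10.46 and 8.31 FPKM in the controls, 1.78-fold between the means. Its irradiated libraries were all above the controls, with a log2 difference of 0.75, or 0.94 without replicate 2. TGFA was at 3.88, 2.88 and 5.07 FPKM after 10 Gy and at 3.18, 3.57 and 2.85 FPKM in the controls (0.21, or 0.38 without replicate 2).

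Of the 7 genes that passed the filter in BEAS-2B, HBEGF was the one with every irradiated library above every control, which held for 7.48% of 11734 genes. Without replicate 2 it held for AREG, HBEGF and TGFA, where 13.7% of 11680 genes did so. EGFR had a difference of 0.17 (0.16 without replicate 2), ERBB2 of 0.07 (-0.02), ERBB3 of -0.03 (-0.07) and NRG1 of -0.01 (-0.04), and their groups overlapped. EREG, under the filter, was at 0.23, 0.12 and 0.43 FPKM after 10 Gy and at 0.08, 0.08 and 0.12 FPKM in the controls, with replicates 1 and 3 above every control. The weight of 1 EREG read was estimated at about 0.017 FPKM. In any BEAS-2B library BTC was at most 0.26 FPKM and EPGN at most 0.08 FPKM. The ligand sum was 17.82 FPKM in the library labelled replicate 2 and reached 50.79 FPKM in the highest irradiated library, against 13.37 to 16.72 FPKM in the controls. At its highest, AREG in BEAS-2B, with 24.22 FPKM, was below the controls of A549 and H446.

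Side by side and untested, the response of HBEGF was 0.75 in BEAS-2B, -1.13 in A549 and 0.18 in H446 on the log2 scale, and that of AREG was 2.18, -1.19 and -0.07. EGFR gave 0.17, -0.32 and 0.16. EREG gave -0.77 in A549 and 0.09 in H446, and was under the filter in BEAS-2B.

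**Figure D3:**
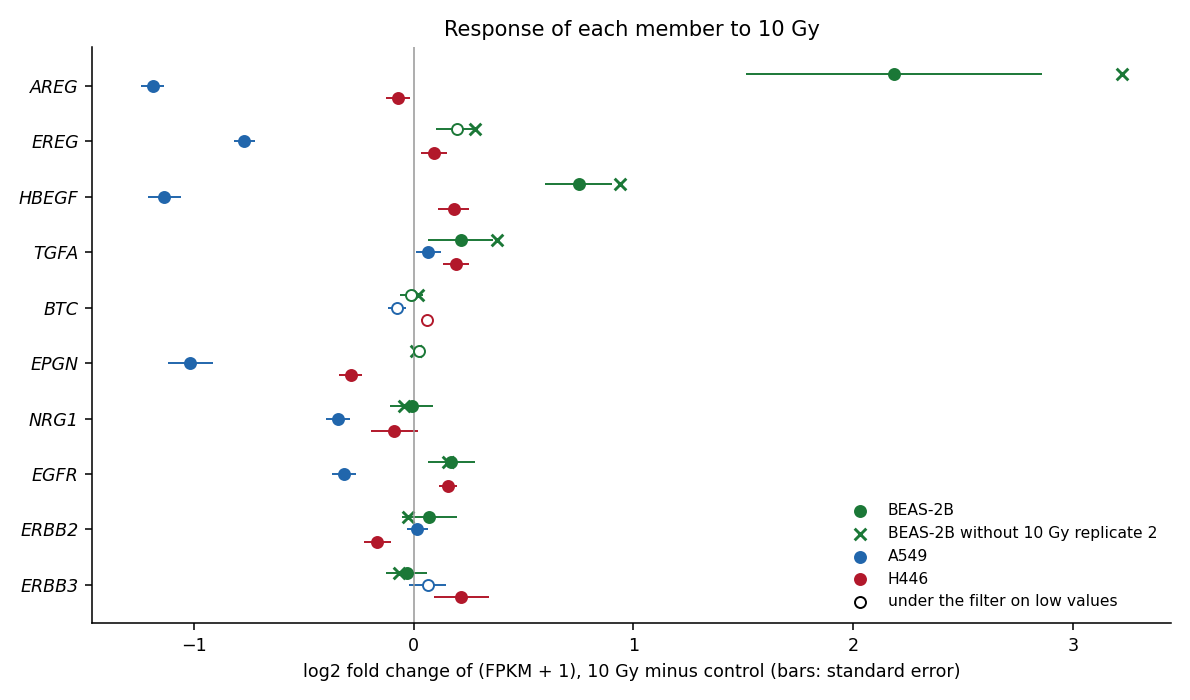
Log2 fold change of FPKM + 1, 10 Gy minus control, for each of the 10 genes in BEAS-2B, A549 and H446 cells, with bars for the standard error, open points for genes under the filter on low values, and crosses for BEAS-2B without 10 Gy replicate 2. AREG, EREG, HBEGF and EPGN lie between -1.19 and -0.77 in A549, and AREG and HBEGF lie at 2.18 and 0.75 in BEAS-2B cells.

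Other genes of the pathway were described from 5 lists, which cover further ligands and a receptor, the release of ligands, the relay after the receptors, its inhibitors and its transcriptional targets. The list of 12 transcripts known to respond to ERK holds immediate early genes, the ETS factors ETV1, ETV4 and ETV5 and other targets. In A549 cells 8 of its 12 tested genes fell and 2 rose, where 26.4% of all genes fell and 25.3% rose, with a median log2 difference of -0.37 beside -0.004 over all genes tested. EGR1, an immediate early transcription factor, fell from 25.21, 20.75 and 23.73 FPKM to 6.12, 5.78 and 5.63 FPKM (-1.82, SE 0.07, adjusted p = 1.9e-09). MYC, a driver of growth, fell from 47.10, 47.70 and 44.59 FPKM to 18.96, 19.10 and 20.72 FPKM (-1.21, SE 0.05, adjusted p = 2.7e-09). The 2 genes that rose were CCND1, encoding cyclin D1 (0.31, adjusted p = 1.6e-05), and the receptor gene EPHA4 (0.30, adjusted p = 0.0151).

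In H446 cells 3 of 10 tested genes of this list rose and 0 fell, against 14.8% and 23.6% of all genes, with a median of -0.008 beside -0.033 over all genes. FOSL1 rose by 0.26 (SE 0.06, adjusted p = 0.00525) and FOS by 0.24 (SE 0.06, adjusted p = 0.00960), both parts of the AP-1 factor. EGR1 was at or below 0.74 FPKM in every H446 library. The test of the difference between A549 and H446 gave 7 lower and 1 higher of 12, against 15.3% and 19.3% of all genes. EGR1, 1 of the 7, was under the filter in H446, so its difference follows from its level there. In BEAS-2B cells limma called 0 of 11 genes, the median was 0.42 beside 0.002 over all genes, and 7 had an unadjusted p under 0.05, against 12.3% of all genes. The median of the list was 0.51 without 10 Gy replicate 2. Without the library labelled 10 Gy replicate 2, 6 of 11 rose, namely EGR1, FOS, EPHA2, CCND1, ETV4 and IER3, and 7 rose with all 18 libraries in 1 fit, against 1.92% and 4.24% of all genes in these fits. That library was left out because its CDKN1A and AREG stood near the controls, and the lists were chosen with earlier results known. The BEAS-2B counts without it, here and for the lists below, are therefore a description. EGR1 was at 61.25, 31.64 and 55.93 FPKM in irradiated BEAS-2B and at 20.13, 25.62 and 19.92 FPKM in its controls. As background to these counts, limma called 0 of 11734 genes in BEAS-2B with all libraries, 1446 having an unadjusted p under 0.05, 233 genes without replicate 2, and 822 in the fit of all libraries.

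The 16 feedback inhibitors, which ERK signalling is known to induce or which turn the receptors down, showed 9 lower and 2 higher in A549, against 26.4% and 25.3% of all genes. Their median was -0.17 beside -0.004 over all genes. ERRFI1, an inhibitor of the EGFR kinase, fell from 97.91, 94.72 and 92.88 FPKM to 55.50, 55.77 and 59.97 FPKM (-0.73, SE 0.04, adjusted p = 6.3e-08). DUSP5, a nuclear ERK phosphatase, fell from 37.98, 39.54 and 37.27 FPKM to 23.21, 20.85 and 24.60 FPKM (-0.72, SE 0.06, adjusted p = 8.9e-07). SPRY1 (0.28, adjusted p = 0.0311) and SOCS5 (0.24, adjusted p = 0.00389) rose. In H446, 3 of the 16 rose and 1 fell, where 14.8% of all genes rose and 23.6% fell, so that the rises were near the share of all genes. DUSP5 rose there by 0.37 (SE 0.04, adjusted p = 1.3e-04), SPRY2 by 0.30 (SE 0.06, adjusted p = 0.00244), and LRIG1, which promotes receptor degradation, fell by 0.33 (SE 0.07, adjusted p = 0.00524). The difference of the responses was lower in A549 for 6 and higher for 1 of the 16, against 15.3% and 19.3% of all genes. In BEAS-2B limma called 0 of 16, with 2 at an unadjusted p under 0.05, near the 12.3% of all genes. DUSP5 and DUSP6 rose without replicate 2, where 1.92% of all genes rose, and 2 of the 16 rose with all libraries in 1 fit (4.24% of all genes).

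**Figure D4:**
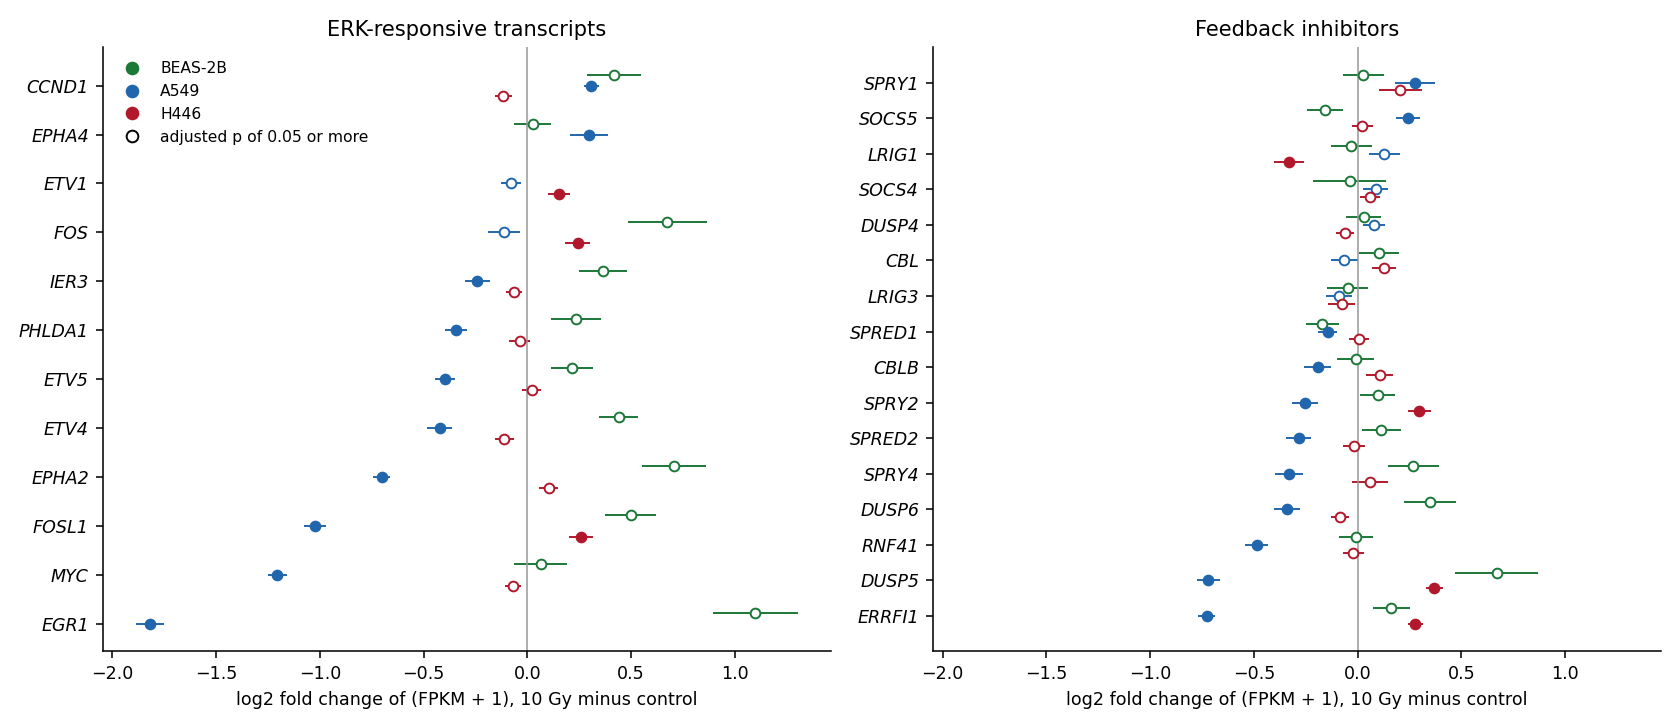
Log2 fold change of FPKM + 1, 10 Gy minus control, for the ERK-responsive transcripts (left) and feedback inhibitors (right) in the 3 lines, with bars for the standard error and open points where the adjusted p was 0.05 or more. Genes are ordered by the A549 value, which runs down to -1.82 for EGR1 on the left and -0.73 for ERRFI1 on the right. All BEAS-2B points are open.

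The proteases that release the ligands and their partners formed a list of 12 genes. In A549 cells 4 of the 10 tested rose and 2 fell, against 25.3% and 26.4% of all genes. FRMD8, which stabilises the iRhom partners of ADAM17, rose from 4.54, 5.37 and 4.88 FPKM to 6.98, 6.84 and 7.56 FPKM (0.46, SE 0.07, adjusted p = 1.8e-04), and RHBDF2, the iRhom that carries ADAM17 to the surface, rose by 0.42 (SE 0.04, adjusted p = 1.0e-05). ADAM17 itself, the main sheddase of AREG, HBEGF and TGFA, fell by 0.14 (SE 0.04, adjusted p = 0.00969), and ADAM9 fell by 0.16 (SE 0.04, adjusted p = 0.00221). In H446 cells 4 of 11 rose and 1 fell, against 14.8% and 23.6% of all genes. ADAM10, a sheddase of BTC, rose by 0.27 (adjusted p = 5.4e-04), CD9 by 0.25 (adjusted p = 8.8e-04), and ADAM15 fell by 0.21 (adjusted p = 0.00550), a call lost with the GC trends removed (-0.01, adjusted p = 0.840). In BEAS-2B limma called 0 of 11, with 3 at an unadjusted p under 0.05 (12.3% of all genes). FRMD8 rose there without replicate 2 (0.50, adjusted p = 0.0143), where 1.92% of all genes rose, and 2 of the list rose with all libraries in 1 fit, where 4.24% did.

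Of 22 adaptor and kinase genes, 6 rose and 5 fell in A549, and 5 rose and 5 fell in H446, with medians of -0.004 and -0.02. These counts were near the shares of all genes, 25.3% higher and 26.4% lower in A549 and 14.8% and 23.6% in H446. In A549 the adaptor SHC1 rose by 0.40 and HRAS by 0.25, while MAP2K1, the gene of MEK1, fell by 0.22. In H446 the largest rises were PIK3CA (0.27) and NRAS (0.20), and HRAS fell by 0.42 and PLCG1 by 0.40. HRAS had a response that was higher in A549 than in H446 by 0.67 (SE 0.12, adjusted p = 5.1e-04). With the GC trends removed, 3 of the 22 rose and 2 fell in H446, HRAS there had -0.19 (adjusted p = 0.119), and its difference between the lines was 0.49 (adjusted p = 0.0138). In BEAS-2B limma called 0 of 22, with 2 at an unadjusted p under 0.05 (12.3% of all genes). It called 0 without replicate 2 as well, and 1 fell with all libraries in 1 fit (2.76% of all genes). Among the 5 other ligand and receptor genes of the family, NRG4, an ERBB4 ligand, rose in A549 from 2.76, 2.66 and 3.07 FPKM to 3.69, 3.91 and 3.59 FPKM (0.31, SE 0.07, adjusted p = 0.00370). It was not called in H446 (-0.07, adjusted p = 0.546) or BEAS-2B, and NRG2, tested in A549 alone, was not called (-0.02, adjusted p = 0.820). EGF, NRG3 and ERBB4 did not pass the filter in any line and were not tested.

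The genes most like a family member were read from the Pearson correlation of log2(FPKM + 1) over the 18 libraries, each centred on the mean of its line, among 9375 genes with a mean of at least 5 FPKM. The libraries share their irradiation and the GC trend noted above, and the correlation is a description. They include the irradiated BEAS-2B libraries, with replicate 2 among them, by which the genes were chosen. AREG was closest to PMEPA1 (0.95), ATF3 (0.95) and SERPINB5 (0.94). Of these, ATF3, a stress-induced transcription factor, had log2 differences of 1.23 in BEAS-2B, -1.06 in A549 and 0.30 in H446. In the same order PMEPA1 had 0.39, -0.33 and -0.09, and SERPINB5 had 1.87, -0.22 and -0.14. EREG was closest to ODC1 (0.96), RCAN1 (0.95) and CD274 (0.95), the gene of PD-L1, which had -1.33 in A549 and 0.01 in H446. HBEGF was closest to EGR1 (0.96), RUSC2 (0.95) and EPHA2 (0.95). NRG1 was closest to MAGOH (0.83), ALYREF (0.82) and DDX59 (0.82), and EGFR to CTNNA1 (0.94), DPF2 (0.94) and MAP1B (0.93).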

How the data were processed

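RNA was measured in 3 control and 3 irradiated libraries of each of 3 cell lines. Poly(A) RNA was sequenced by the authors from a single end over 50 bases. The submitters' processing notes name HISAT2 2.0.4, Bowtie2 2.2.5, RSEM 1.2.12 and hg38. The deposited values were taken to be FPKM as normalized by the authors, a unit inferred from the values, since the labels and header do not name it. Depth is unknown, and no counting interval is given.

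Values were transformed to log2(FPKM + 1). A gene was tested where 3 or more of the 6 libraries of a line reached 1 FPKM, with limma 3.58.1 (lmFit, eBayes with trend, R 4.3.3) within the line, and, for genes passing in any line, with 6 group means fitted to all 18 libraries. Benjamini-Hochberg adjusted p under 0.05 over all genes tested made a call. An exact permutation test of 3 against 3 cannot go below 0.1. Scripts were tested on simulated data. The 10 genes and the pathway and marker lists were chosen with earlier results of these data known. Named were the 10 genes, per list and line up to 2 called genes with the largest rise and up to 2 with the largest fall, the 3 genes most like AREG, EREG, HBEGF, NRG1 and EGFR, the markers and CDKN1A, of which some are not reported here. Other genes named from the lists (the 6 ERK-responsive genes, DUSP5 and DUSP6, and FRMD8 called in BEAS-2B without replicate 2, and HRAS between lines) were chosen after their values were seen. Alternatives were quantile normalization, a pseudocount of 0.1, no filter, 1 FPKM or more in every library, no variance trend, the replicate number as a block, removal of a loess trend (span 0.5) of each library against transcript GC (17848 genes, longest GENCODE transcript), all 18 libraries in 1 fit, and each library left out. For the pathway lists, the GC alternative was run in A549 and H446, the fit of all libraries and the fit without replicate 2 in BEAS-2B, and no other. Over all pairs of the 18 libraries, at most 3.22% of the values above 0 in both were equal. Promoter windows came from RefSeq (GRCh38.p14), with entries for 8 of the 10 genes. Figures were made with Python 3.11.15 and matplotlib 3.10.9.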

Additional observations from a re-analysis of the deposited data

Results flagged for a closer look

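The test of the difference in response between A549 and H446 cells called 4 of the 9 tested genes, all lower in A549, where 15.3% of 13071 genes were lower, with values on the log2 scale as A549 minus H446. These were EREG (-0.86, SE 0.11, adjusted p = 1.0e-05, limma), HBEGF (-1.32, SE 0.17, adjusted p = 2.0e-05), EPGN (-0.73, SE 0.13, adjusted p = 2.4e-04) and EGFR (-0.47, SE 0.11, adjusted p = 0.00362). AREG, with -1.12, was not called (adjusted p = 0.252), but passed without BEAS-2B 10 Gy replicate 2 (adjusted p = 7.9e-04) and in the 12 libraries of the cancer lines alone (adjusted p = 9.4e-08). HBEGF is listed as a description, since every irradiated BEAS-2B library was above its controls and every irradiated A549 library below its own. The responses differed by 1.89 on the log2 scale (BEAS-2B minus A549). This difference was not tested, and nothing is drawn from it, because the rise in BEAS-2B was in view when the genes were chosen.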

How the results depend on the processing

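Of 1229 alternative values for single genes, 1206 were counted as unchanged, 11 no longer passed, 9 newly passed and 3 changed sign. In the tested comparisons, unchanged meant the same direction and side of the threshold. In the untested BEAS-2B response it meant a move smaller than the pooled SD of the gene. ERBB2 there went from 0.07 to -0.02 without 10 Gy replicate 2 and was counted as unchanged. The 3 counted sign changes were near 0, for ERBB2 in A549 without A549 control replicate 1 (-5.3e-05, range with 1 library left out up to 0.030) and for NRG1 in H446 without H446 control replicate 3 (0.0036) or 10 Gy replicate 1 (0.0012, range from -0.14). The 2 genes higher in H446 became 1 with no filter on low values and 0 with all 18 libraries in 1 fit, and 3 with quantile normalization, no variance trend or the GC trend removed. With 1 library left out, they numbered 1 to 2 and the lower genes 1 to 2. With a limit of 1 FPKM in every library, which leaves fewer genes to test, A549 minus BEAS-2B gave 3 higher and 1 lower, H446 minus BEAS-2B gave 2 higher, H446 minus A549 gave 0 higher and 3 lower, and the A549 minus H446 response gave 2 lower. With the GC trend removed, A549 minus BEAS-2B gave 1 lower, and the cause was not tested. The count of genes with all irradiated BEAS-2B libraries above all controls was 1 to 3 with 1 library left out, namely 2 without control replicate 2 and 3 without 10 Gy replicate 2. The replicate numbers were not treated as pairs. Control and irradiated libraries of a number had correlations of -0.13 to 0.32 in BEAS-2B, -0.10 to 0.01 in A549 and 0.01 to 0.19 in H446. With 3 libraries per group and the GC trends in them, these values cannot exclude a pairing. With the replicate block, the counts were 6 lower in A549, 2 higher and 1 lower in H446, and 4 lower for the difference of these responses, as without it. The read counts were not used here, and the weight of 1 read is an estimate from short genes, so low levels such as those of EREG and EPGN in BEAS-2B are given with no counting error.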
